A study of Salix matsudana with 3 samples.

Results

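The miR394 family was represented by 2 of the 205 miRNA entries listed for roots and stems of Salix matsudana, the Chinese willow, and by 15 of 981 degradome records, each pairing a miRNA entry with a cleavage site. Members were taken by family number: every entry named miR394 or MIR394, and every cleavage pair assigned to one. The plants were 30 days old. The salt library came from plants kept for 2 days in 100 mmol L-1 NaCl, and the untreated library from plants without salt. Another library, the degradome, sequenced the cut ends of messenger RNA in a mix of the RNA of both conditions. Each of the 3 libraries was a single one, how many plants went into it is not stated in the labels, and salt cannot be told apart from the 2 days that passed. The tables hold miRNAs and cleaved targets, so the tissue was not checked against marker genes. In such whole-tissue RNA, fewer cells that make a miRNA and less of it per cell cannot be told apart.

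miR394 is an old plant miRNA that is cut from a long hairpin precursor. In Arabidopsis it is made in the surface layer of the shoot tip, moves inward, and represses the F-box gene LEAF CURLING RESPONSIVENESS. This repression keeps the stem cells of the shoot meristem competent. F-box proteins are the parts of ubiquitin ligases that choose which protein is degraded. The same pair is known from leaf shape and from responses to abscisic acid, drought and salt in Arabidopsis. Plant miRNAs pair with their targets over nearly their whole length, and the target is cut opposite the middle of the miRNA.

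Both small RNA entries came from the same hairpin, at positions 288 to 435 of contig c16077_f1p0_859_2_3kb, whose name has the form of a long-read transcript isoform. They are shown first because their place in the hairpin frames every comparison that follows. In the mature sequences the capitals mark the seed, bases 2 to 8. In the hairpin they mark the 2 stretches that the deposited table assigns to the entries.
ptc-miR394a-5p: tTGGCATTctgtccacctcc
ptc-MIR394a-p3_1ss16TC: aGCTCTGTtggtctccctttg
miR394 hairpin: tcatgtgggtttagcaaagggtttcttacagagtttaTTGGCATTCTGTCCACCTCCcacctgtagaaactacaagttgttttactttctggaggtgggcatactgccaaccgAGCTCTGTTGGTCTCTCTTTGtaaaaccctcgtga

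The 5p entry was 20 bases long, a length shared by 19 of the 205 entries, and it began with T, as did 110 of them. It matched the hairpin at every base. The 3p entry was 21 bases long, began with A and differed from the hairpin at 1 base, T16C, with the hairpin's base first and positions counted from the 5′ end of the entry. Neither seed occurred at bases 2 to 8 of any other listed entry. The closest listed sequence outside the family, ptc-miR1444a_R+1, matched the 5p entry at 12 bases without gaps.

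The 2 entries did not face each other in the hairpin. RNAfold predicted a stem of -71.3 kcal/mol over the 148 bases, and 8 of the 40 hairpins folded had a lower energy per base. The 5p entry lay at hairpin bases 38 to 57 and paired through 17 of its bases with bases 91 to 110. The 3p entry lay further out on the other side, at bases 114 to 134, and paired through 17 of its bases with bases 15 to 35. No base pair joined the 2 entries. Cut with the usual 2-base overhangs, the strand facing the 5p entry would span bases 93 to 112. That strand ends 1 base before the 3p entry begins, and the stretch facing the 3p entry ends 2 bases before the 5p entry begins. The listed entries therefore lie on neighbouring stretches of the stem, and both facing strands are given here to show the layout.
strand facing the 5p entry, bases 93 to 112: aggtgggcatactgccaacc
stretch facing the 3p entry, bases 15 to 35: caaagggtttcttacagagtt

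No listed entry held 12 bases in a row of either facing strand. Among 39 hairpins with 2 marked arms, 15 had no pair between the arms. Among the 20 of them with a numbered miRNA family, 6 had none, miR394 included, and in the other 14 the arms shared 10 to 17 pairs. Arms without a shared pair were thus found in several listed hairpins. Whether the entries of those hairpins lay on neighbouring stretches of the stem, as in miR394, was not examined.

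**Figure D1:**
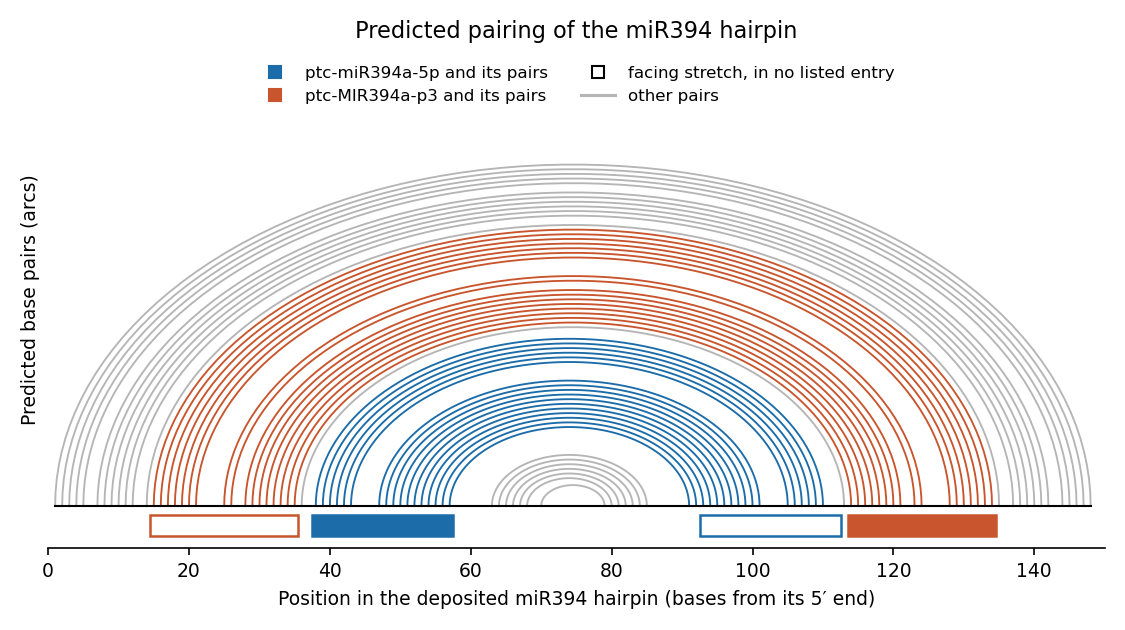
Arcs join bases predicted to pair in the deposited miR394 hairpin, along its 148 positions. Filled boxes are the 2 listed entries and open boxes the stretches facing them. The pairs of the 5p entry are nested inside those of the 3p entry, and no arc joins the filled boxes.

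Levels are given per 1000000 of the reads listed in the table, written RPM. The listed reads were 734026 in the salt library and 4622984 in the untreated library, so 1 read was worth 1.36 and 0.216 RPM and a count of 0 would allow up to 4.09 and 0.649 RPM. ptc-miR394a-5p, the arm that acts on the F-box target, had 1947 reads or 2652 RPM in the salt library and 21834 reads or 4723 RPM in the untreated library. It held 0.265% of the salt reads (exact Clopper-Pearson 95% interval 0.254 to 0.277) and 0.472% of the untreated reads (0.466 to 0.479). Its share was 1.78-fold lower in the salt library, with a 95% counting interval of 1.70 to 1.87. All intervals cover counting error only, and with 1 library per condition no difference has a replicate check or a test.

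The other arm stood the other way round on this scale. ptc-MIR394a-p3_1ss16TC had 122 reads or 166.2 RPM in the salt library and 548 reads or 119 RPM in the untreated library. Its share was 1.402-fold higher in the salt library (1.14 to 1.71). The sum of both entries was 2819 RPM in the salt library and 4841 RPM in the untreated library, 1.72-fold lower (1.64 to 1.80), since the 5p entry carried nearly all of it. Summed by family, miR394 ranked 18 of 76 in the salt library and 12 in the untreated library. As a single entry the 5p arm ranked 24 of 205 in the salt library and 15 in the untreated library.

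On the scale of log2(RPM + 1), the ratio of salt over untreated was -0.83 for the 5p entry and 0.48 for the 3p entry, and neither was 2-fold apart. Of the 115 entries that averaged 10 RPM or more over both libraries, 37 (32.2%) had a salt level 2-fold or more above the untreated one and 15 (13.0%) a level 2-fold or more below it. The median ratio of these entries was 0.33 log2. The 5p entry had a ratio above those of 17 of the 115 and below those of 97, and the 3p entry lay near the middle, with 63 entries below it and 51 above.

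**Figure D2:**
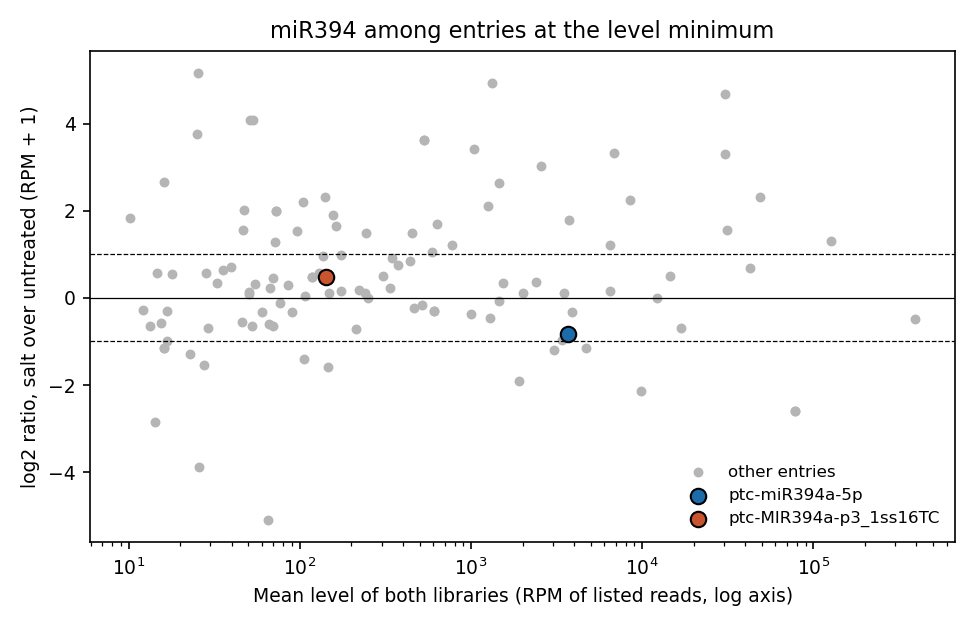
Each point is 1 of the 115 entries at the level minimum, with its mean RPM over both libraries across (log axis) and the log2 ratio of salt over untreated on RPM + 1 upwards. Dashed lines mark 2-fold. The 5p entry lies at -0.83 and the 3p entry at 0.48, both between the lines.

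How far the 5p entry lay below the untreated library depended on the scaling. Its log2 ratio was -0.83 with the listed total, -0.61 without the families miR6300, miR2916, miR8175, miR5139 and miR5141, -1.005 with each identical sequence counted once, -1.18 with the median ratio, -1.21 without miR159 and -1.81 without the 5 most abundant entries. It was negative under all 6 scalings and at least 2-fold lower under 4 of them. The 3p entry ran from -0.49 without the 5 most abundant entries to 0.70 without the 5 families named before, and it was negative only without the 5 most abundant entries. The scalings moved the median of the 115 entries by -0.96 to 0.22 log2. A change of scaling moves all entries nearly alike, so the distance to that median is close to fixed by construction. It was -1.17 for the 5p entry and 0.15 for the 3p entry with the listed total.

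**Figure D3:**
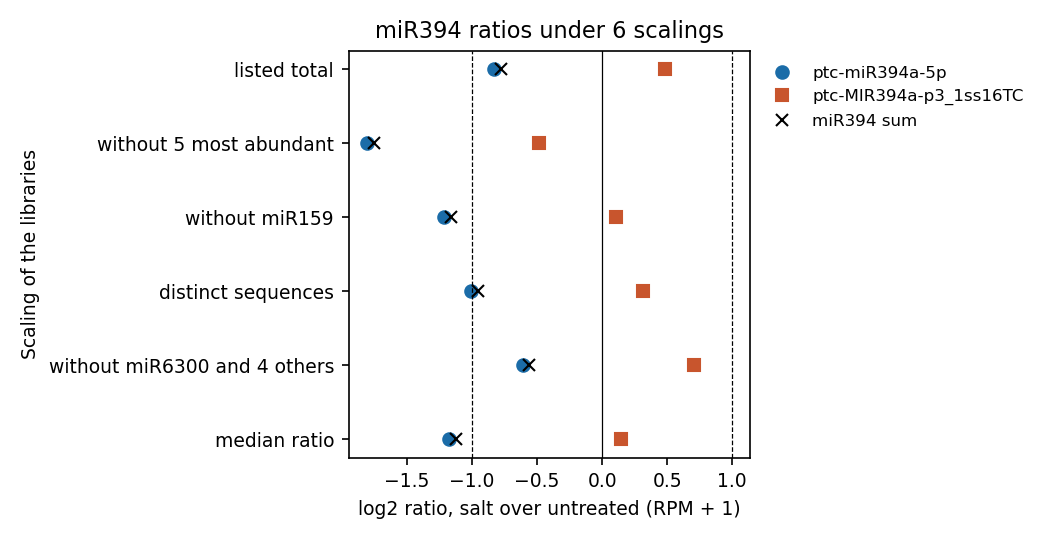
Points are the log2 ratios of salt over untreated on RPM + 1 for the 5p entry, the 3p entry and their sum, 1 line per scaling of the libraries. Dashed lines mark 2-fold. The 5p entry runs from -1.81 to -0.61 and stays left of 0, while the 3p entry crosses 0 without the 5 most abundant entries.

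The share of each arm within the hairpin needs no scaling between libraries. The miR394 entries share no predicted pair, so their ratio is not one between the strands of the same duplex. The 3p entry took 122 of 2069 hairpin reads, 5.90% (4.92 to 7.0), in the salt library and 548 of 22382, 2.45% (2.25 to 2.66), in the untreated library. There were 15.96 reads of the 5p entry per read of the 3p entry in the salt library and 39.8 in the untreated library. The 5p to 3p ratio was 2.50-fold lower in the salt library, with an exact 95% counting interval of 2.02 to 3.06. The interval of the shift left out 1, as it did in 17 of the 27 hairpins compared (63.0%).

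Shifts of this size were common among the listed hairpins, some of which, like miR394, had arms without a shared pair. Of these 27 hairpins, which had at least 10 reads in each library and all 4 values above 0, 13 (48.1%) had a 5p to 3p ratio at least 2-fold apart, 5 of them (18.5%) lower in the salt library and 8 higher. With at least 50 reads per hairpin and library, 9 of 21 hairpins were at least 2-fold apart. The miR394 shift of -1.32 log2 was exceeded in size by 10 of the 27. Among those 10, PC-5p-74066_38, PC-5p-250886_9 and PC-5p-345277_6 had few reads and intervals that held 1. The lowest shift was that of PC-5p-3490_1413, a predicted hairpin, at -4.52 log2, and the highest that of ptc-MIR166j-p5, from the miR166 hairpin, at 3.51. The miR394 hairpin was therefore 1 of many with such a shift in these libraries.

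**Figure D4:**
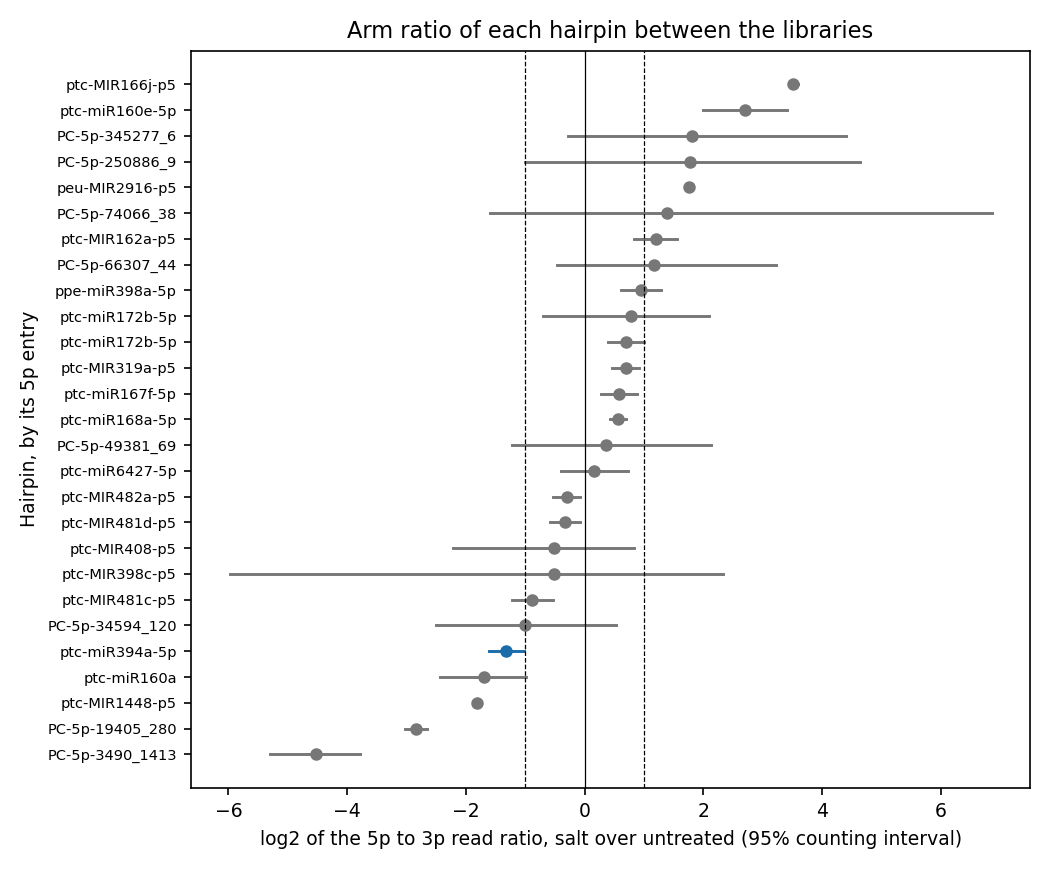
Each point is the log2 of the 5p to 3p read ratio, salt over untreated, of 1 of 27 hairpins named by its 5p entry, and bars are 95% counting intervals. Dashed lines mark 2-fold. miR394 (blue, -1.32) is the fifth from the bottom, and its interval lies left of 0.

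Entries next to the 5p entry in level are given for scale. In the salt library, ptc-miR166n, ptc-miR3627a_R+1_1ss20TC and ath-miR8175_L+1_1ss3AT came just above it, at 3465, 2922 and 2697 RPM. PC-3p-38044_103, ptc-miR160a and ptc-miR169ac_R+2 came just below it, at 2552, 2520.3 and 2313 RPM. In the untreated library, ptc-miR3627a_R+1_1ss20TC, ptc-miR408-3p_L-1R+1 and peu-MIR2916-p5_1ss5AG stood above it at 6465, 6136 and 5633 RPM. ptc-miR169ac_R+2, ptc-miR166n and aly-miR858-5p_L-1R+1 stood below it at 4525, 4353 and 4253 RPM. In the salt library the steps from the 5p entry to its neighbours were small, at 2697 and 2552 RPM around 2652. The salt share of the 5p entry had a counting interval of 0.254 to 0.277%, which covers the 0.270% of ath-miR8175_L+1_1ss3AT and the 0.255% of PC-3p-38044_103. Its untreated share had an interval of 0.466 to 0.479%. That interval covers neither the 0.563% of peu-MIR2916-p5_1ss5AG nor the 0.452% of ptc-miR169ac_R+2.

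The entries with the ratio most like that of the 5p entry, by the smallest difference in log2 ratio between 2 libraries, were ptc-miR398b_R+1 at -0.71, ptc-miR169ac_R+2 at -0.97, PC-5p-34356_122 at -0.70, ptc-miR319a at -0.69 and PC-3p-45230_79 at -0.99. Of these, ptc-miR169ac_R+2 was also near it in level, at 2313 RPM in the salt library and 4525 RPM in the untreated library. miR169 is known to act on NF-Y transcription factor subunits. Among the entries nearest in ratio, PC-5p-34356_122 and PC-3p-45230_79 had few salt reads, 16 and 8. The counting interval of the salt share over the untreated share was 0.34 to 1.02 for PC-5p-34356_122, which holds 1. For PC-3p-45230_79 it was 0.20 to 0.99, so the place of both entries in this ranking is uncertain.

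Other miRNAs known to act on F-box genes were set beside miR394. The list held miR393, which acts on the auxin receptors TIR1 and AFB, miR2111, which acts on F-box kelch genes, and miR394. Of its 5 entries at the level minimum none was 2-fold higher or lower, against 32.2% higher and 13.0% lower over all 115. The 5 were both miR394 entries, ptc-miR2111a, gma-miR393a and mes-miR393c_R-1. Their median log2 ratio was -0.29, against 0.33 over all 115, and it is the value shared by the miR393 entries. Entries gma-miR393a and mes-miR393c_R-1 share a sequence, and each stood at 543 RPM in the salt library and 664 RPM in the untreated library. ptc-miR2111a stood at 36.8 RPM in the salt library and 29.0 RPM in the untreated library. None was 2-fold higher under any of the 6 scalings, while over all entries 23 of 136 to 38 of 111 were. Those 2-fold lower were 4 of 6 tested without the 5 most abundant entries, 1 of 5 without miR159, 1 of 5 with the median ratio and 1 of 4 with distinct sequences, and the single entry in the last 3 cases was ptc-miR394a-5p. Over all entries tested, the 2-fold lower ones made up 40.4% without the 5 most abundant entries, 20.2% without miR159, 18.4% under the median ratio and 15.5% when identical sequences were counted once.

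A second list held families known in Arabidopsis from the shoot meristem and its boundaries, miR394 with miR164, miR165, miR166, miR171 and miR390. No entry of miR165 was listed. Of the list's 17 entries that reached 10 RPM, 5 were 2-fold or more above the untreated library, 1 was below it by as much and 11 were neither, against 32.2% above and 13.0% below over all entries. The 5 higher were nta-miR164a, tcc-miR171d_L+1, sly-miR164a-3p_2ss10GT12TC, ptc-MIR166j-p5 and gma-miR166a-5p_L-1R+2_1ss16TA. The miR164 3p entry and both miR166 5p entries are not the arms described below as acting on targets. The median of the list was 0.09 log2. Without the 5 most abundant entries 4 of 16 were higher and 7 lower, against 16.9% higher and 40.4% lower over the 136 entries tested with that total. nta-miR164a, which restrains NAC factors at organ boundaries, stood at 9120 RPM in the salt library and 3910 RPM in the untreated library. ptc-miR166a, which acts on HD-ZIP III factors, stood at 329717 RPM in the salt library and 459486 RPM in the untreated library. The entries of these families thus lay on both sides of 0, and miR394a-5p had a ratio of -0.83 among them.

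In the degradome, the F-box gene held most miR394 reads. All 15 pairs belonged to the 5p entry, and the 3p entry had 0. They named 4 symbols. FBX6 is the Arabidopsis symbol of the gene also called LEAF CURLING RESPONSIVENESS. WRKY19 is the symbol of a gene of the WRKY family, BHLH49 that of a basic helix-loop-helix factor, and FY that of a factor in messenger RNA 3′ end processing that is known from flowering control.

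FBX6 had 4 pairs with 157 reads at each, at transcript positions 1248, 1250, 1259 and 1310. The alignment score, for which lower is better and which ran to 4 in the table, was 1 at 3 of these sites and 2 at the site at 1259. WRKY19 had 7 pairs at 6 distinct positions between 1233 and 1427, each with 14 reads and a score of 4. BHLH49 had 3 pairs at 1629, 1989 and 2003, each with 1 read and a score of 4. FY had 1 pair at 2247 with 1 read and a score of 4.

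Reads were equal over all pairs of a symbol, and transcripts are not named in the table. The table does not say whether the same reads are listed for several transcripts of a gene. Counting each symbol once, FBX6 held 157 of 173 reads, 90.8% (exact Clopper-Pearson interval 85.4 to 94.6). Over all 15 pairs it held 628 of 730 reads, 86.0%, and pairs that repeat the same reads would make the interval of that share too narrow. The 14 reads at WRKY19 were the only other count above 1.

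The cut lay at the usual place in FBX6. At each of its 4 pairs the aligned stretch was 20 bases, the length of the miRNA, and the cleavage position was the 10th base from the 3′ end of the stretch, which faces base 10 of the miRNA. The same position was found in 863 of all 981 pairs (88.0%), and the rest had the cut at base 9 (62 pairs) or base 11 (56 pairs). Every listed pair thus had a cut near the middle, so the place of the cut does not set FBX6 apart. At WRKY19 the stretch was 21 bases and the cut lay at base 11. At BHLH49 the stretch was 19 bases and the cut lay at base 10, and at FY it was 19 bases with the cut at base 9. Stretches of 19 or 21 bases need a gap in the alignment, whose place is not given, so the facing miRNA base was not assigned there. In all, 7 of the 15 miR394 pairs had the cut at base 10 of the stretch. Among pairs of all families, it lay there in 198 of 201 with a score of at most 2 and in 256 of 324 with a score of 4.

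The FBX6 site was among the most read of the listed pairs. By reads at its best site, miR394 ranked 5 of the 43 numbered families with a pair, after miR393 (1137 reads), miR172 (510), miR1448 (306) and miR160 (237). Of all 981 pairs, 59 (6.01%) had 157 reads or more, and the median pair had 6 reads. Among the 201 pairs with a score of at most 2 the median was 25 reads, and 45 had at least 157. For pairs with a score of 4 the median was 2 reads. The 14 reads at WRKY19 were reached by 47 of those 324 pairs, and 128 had 1 read, like BHLH49 and FY.

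The sites of other families with reads nearest to the 157 at FBX6, 1 per family, belonged to miRNAs that differed widely in level. ptc-miR1444a_R+1 had 111 reads at an unnamed target, with 3621 RPM in the salt library and 3351 RPM in the untreated library. ptc-miR166a had 109 reads at ATHB-14, an HD-ZIP III gene, with 329717 RPM in the salt library and 459486 RPM in the untreated library. aly-miR172a-3p had 86 reads at RAP2-7, an APETALA2-like gene and not the most read site of the miR172 family, with 450 RPM in the salt library and 239 RPM in the untreated library. The alignment score was 3.5 at the sites of ptc-miR1444a_R+1 and ptc-miR166a and 2 at that of aly-miR172a-3p, against 1 or 2 at FBX6. The miR394 site had more reads than the best site of ptc-miR166a, a miRNA far above it in level. The levels of the target transcripts were not measured, so these reads do not give cleavage per miRNA.

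Among the F-box regulators, miR394 had 157 reads at FBX6 and 15 pairs, against 1137 reads at TIR1 and 40 pairs for miR393, and 31 reads at At3g27150 and 5 pairs for miR2111. No pair of another family named FBX6, WRKY19, BHLH49 or FY. Since the degradome came from mixed RNA, cleavage of FBX6 cannot be compared between the salt and untreated plants.

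**Figure D5:**
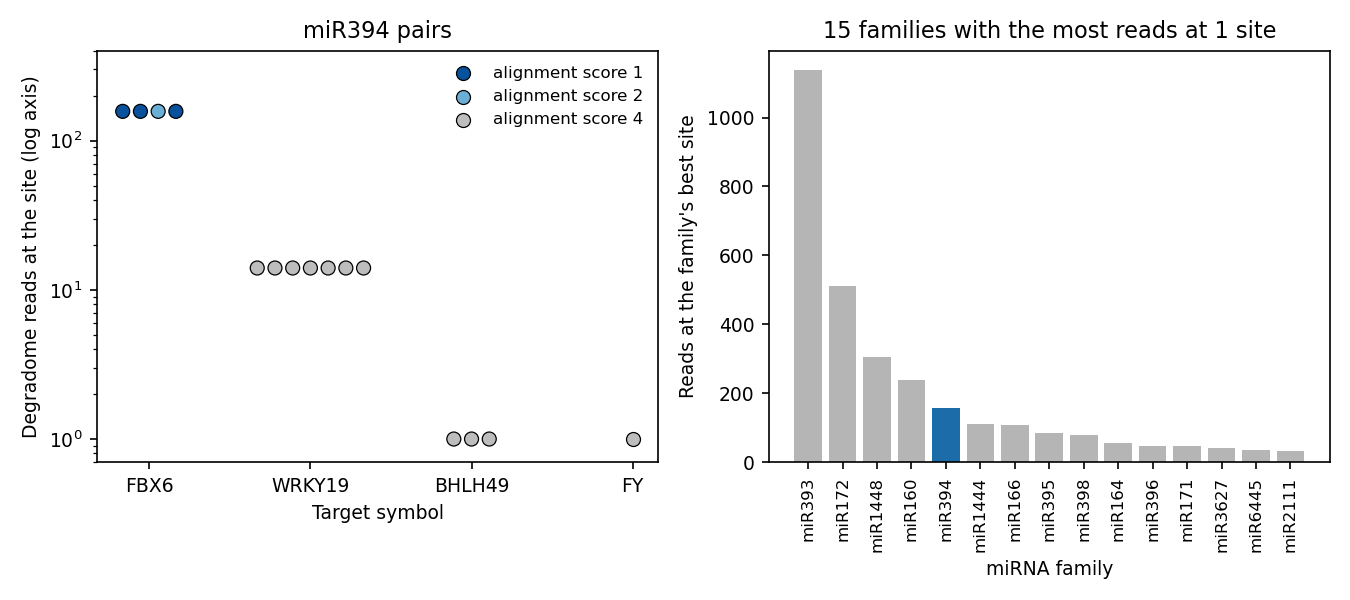
The left panel shows the degradome reads (log axis) at each of the 15 miR394 pairs by target symbol, with the alignment score as colour. FBX6 stands at 157 reads, WRKY19 at 14, and BHLH49 and FY at 1. The right panel shows the reads at the best site of the 15 families with the most, and miR394 (blue) is the fifth.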

How the data were processed

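Small RNA libraries of salt-treated and untreated plants were made from DNase-treated total RNA with Illumina's standard method, per the labels' protocols. Tools for mapping, miRNA calling and degradome calling are not given in the sources used here. For each mature sequence the authors deposited estimated counts, headed raw. Parts of reads occur in 68 of 205 entries, and both miR394 entries held whole numbers. Per the file headers, the degradome table holds raw read counts at cleavage positions, with an alignment score the authors deposited. Its normalized signal, headed TPB in the deposited table without an explanation, was not used.

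Counts were divided by the total of the listed entries and multiplied by 1000000 (RPM). Reads outside the listed entries are not part of this total. Log2 ratios used a pseudocount of 1, and a mean level of 10 RPM was needed to count an entry. Ratios of shares carry exact conditional binomial 95% intervals, after rounding to whole reads, and PCR copies are not independent molecules. Hairpins were paired by identical precursor positions, or by name where no positions were given, and folded with RNAfold 2.7.2 at its default settings. Intervals came from scipy 1.17.1. Columns were matched to libraries by their headers (0d and 2d) and the sample titles. The titles name an untreated control, without a day, and 2 days after salt treatment.

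All miR394 entries and pairs are named. Others are the 3 next above and below the 5p entry in level, the 5 nearest in ratio, the extremes of the arm shift, the 3 degradome sites of other families nearest in reads (1 per family), and members of the 2 lists. In the lists, the entries given with values were chosen after their values were seen. The members and lists were chosen with earlier results of these data known. Alternatives covered pseudocounts, level minimums, thresholds, scalings, hairpin read minimums, alignment scores, read minimums and repeated pairs. Pairing hairpins by the deposited precursor number and counting each symbol once were added after seeing the data.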

Additional observations from a re-analysis of the deposited data

How the results depend on the processing

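Of 64 alternative values, 31 were classed as close to the reported one, 32 as moved and 1 as changed in sign. The class of close values was wide, and it held the 50 higher entries found without a level minimum, against 37 reported. The 5p entry and the sum kept a negative log2 ratio throughout. They were -1.81 and -1.76 when the 5 most abundant entries were left out, -1.21 and -1.16 without miR159, -1.005 and -0.95 with each identical sequence counted once, -0.61 and -0.56 without the families miR6300, miR2916, miR8175, miR5139 and miR5141, and -1.18 and -1.12 with the median ratio. The 3p entry turned to -0.49 when the 5 most abundant were left out, and stood at 0.11 without miR159 and 0.14 with the median ratio. Each follows from the change of scaling. Pseudocounts of 0.1 and 5 moved none of the 3 beyond its counting interval.

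The 37 higher and 15 lower entries became 23 and 55 without the 5 most abundant entries, where more entries reach the level minimum, 32 and 23 without miR159, and 31 and 21 with the median ratio. Of called entries 71.2% were higher with the listed total, 29.5% without the 5 most abundant, 58.2% without miR159 and 59.6% with the median ratio. With a 4-fold threshold 20 were higher and 6 lower, and with 1.5-fold 25 were lower. Without a level minimum, where more entries count, 34 were lower, and with 50 RPM, where fewer count, 9 were. The 13 of 27 hairpins with a 2-fold arm shift became 9 of 21 with at least 50 reads per hairpin and library. They became 20, out of a larger set of hairpins, with at least 1 read on each arm in place of 10 per hairpin. At 4-fold they were 4 of the 27.

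The 15 degradome pairs and 4 symbols became 4 pairs and 1 symbol, FBX6, with a score of at most 3 or at most 2, so its share was 100%. With at least 2 or 5 reads 2 symbols were left. Counting each symbol once left 4 pairs and an FBX6 share of 90.8%. No paired analysis was possible because each condition has 1 library. The 122 salt reads of the 3p entry set the precision of the arm comparison, and the precision of any difference between plants is unknown.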
